A study of Homo sapiens with 8 samples.

Results

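Aminoacyl-tRNA synthetases, the enzymes that load each transfer RNA with its amino acid, were followed on 8 Affymetrix arrays of MOLM-14, a human cell line of acute myeloid leukaemia. The members were taken by gene symbol. They and the gene lists set beside them were chosen with earlier results of these data known, so their counts are descriptions. Of 38 listed genes, 18 had a probe set named here, out of 14884 named genes in all. Of the 19 cytosolic synthetases listed, 17 were measured, FARSA and FARSB being the others. Of the 3 scaffold proteins of the synthetase complex, AIMP1 was measured, while AIMP2 and EEF1E1 had no probe set named here. Of the 16 mitochondrial synthetases (AARS2, CARS2, EARS2, FARS2, HARS2, IARS2, LARS2, MARS2, NARS2, PARS2, RARS2, SARS2, TARS2, VARS2, WARS2 and YARS2) 0 had a named probe set. The planned contrast of cytosolic against mitochondrial enzymes could therefore not be made from the expression values, and any of these genes may lie among the 37519 probe sets that are unnamed here. A probe set named LARS2-AS1 belongs to an antisense RNA and was not taken for LARS2.

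All 8 samples had received doxycycline for 72 h to express a short hairpin RNA. In 4 of them (shCD39) it targeted ENTPD1, which encodes CD39, and in the other 4 (shCTRL) it was scrambled. The labels describe the RNA source as clones without saying how many, and call the samples of a group technical replicates. The p-values thus measure only the spread between arrays. The study sought genes that depend on CD39, an ectonucleotidase that breaks down nucleotides outside the cell.

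Cytosolic synthetases supply the ribosomes of the cytosol, and several of them sit in a multisynthetase complex held together by the scaffold proteins AIMP1, AIMP2 and EEF1E1. Mitochondria translate their own genome with a separate set of synthetases, encoded in the nucleus. Many genes of cytosolic synthetases are known targets of ATF4, the transcription factor of the amino acid response, which is made when the kinase GCN2 senses uncharged transfer RNA. ATF4 binds with C/EBP partners to a composite element whose core can be written TGATGNAA.

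Most cytosolic synthetases had lower means in the shCD39 arrays, but none passed the threshold. The mean was lower in 16 of 17 genes, against 48% of all genes. The median log2 fold change (shCD39 minus shCTRL) was -0.43, against 0.01 over all genes. Over the 7442 genes above the median level, where all 17 lie, it was -0.04. By limma, 0 of 17 were lower at an adjusted p under 0.05 (0.047% of all genes were). At an unadjusted p under 0.05, 14 were lower (8.13% of all genes), and RARS1, which charges the arginine transfer RNA, was higher (6.54% of all genes). In 9 of 17 genes all 4 shCD39 values lay below all 4 shCTRL values, as did 4.23% of all genes; in 0 of 17 they lay above (3.61% of all genes). Without shCD39 array 4, limma put 9 of the 17 past the threshold, all lower, against 2.1% of all genes in that setting. RNA was measured in bulk, so fewer cells of a type and less RNA per cell cannot be told apart.

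**Figure D1:**
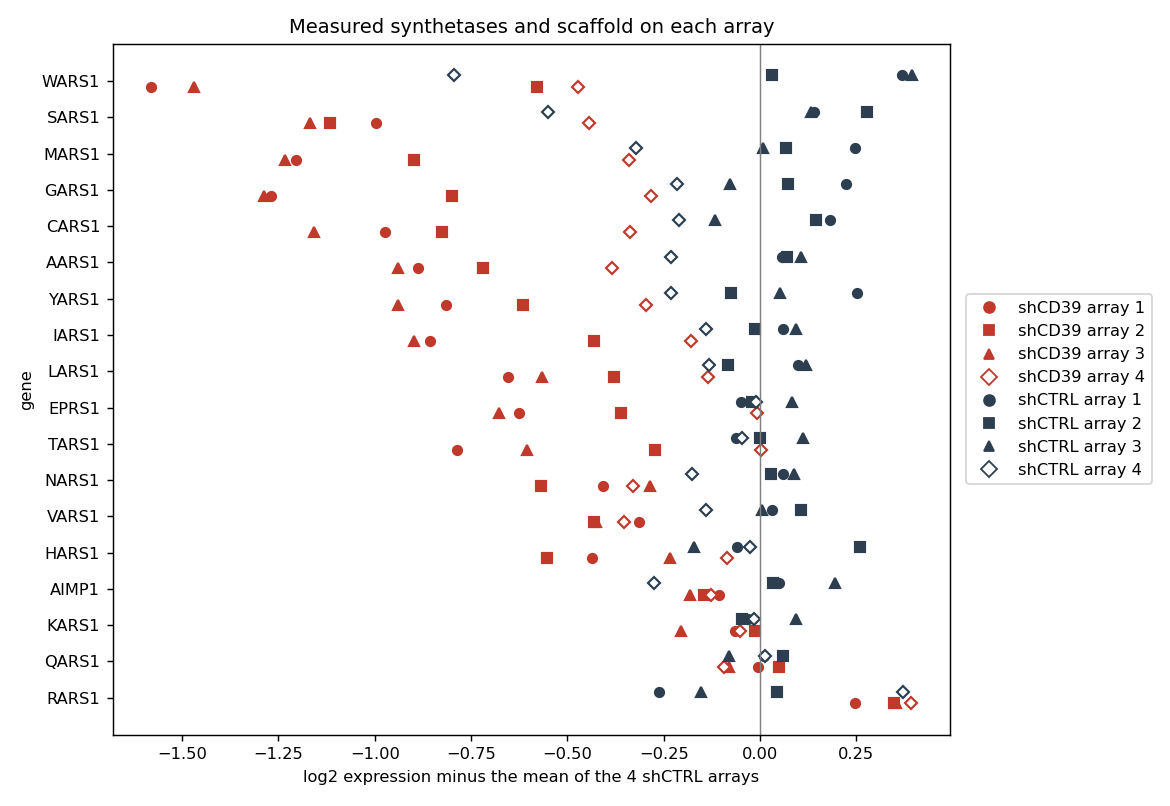
Log2 expression of each measured gene on each array, minus the mean of its 4 shCTRL arrays (x axis), with 1 line of points per gene (y axis); red points are shCD39, dark points shCTRL, and open diamonds mark array 4 of each group. In 9 genes every red point lies left of every dark point, while shCD39 array 4 and shCTRL array 4 approach each other in most genes, and RARS1 runs the other way.

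Because ATF4 is a known regulator of this family, the promoter windows of all listed genes were searched for TGATGNAA on both strands. Windows of 250 bases before to 50 after each annotated start were taken from RefSeq (GRCh38.p14). Of the 17 measured cytosolic genes, 14 had a window, LARS1, VARS1 and YARS1 being the others, and 7 of the 14 held the motif. Over the whole set of windows, 4.46% of gene symbols and 3.62% of windows did, as did 3.22% of the tested genes with a window. Among the mitochondrial synthetases it was found in YARS2 alone, 1 of 14 genes with a window, and among the scaffolds in 0 of 3. The 7 cytosolic sites and that of YARS2 are shown because they mark the members whose windows hold these core letters. Whether ATF4 binds there was not tested. Each site is given as 30 bases 5′ to 3′ on the gene's strand, with the match in capitals.
AARS1: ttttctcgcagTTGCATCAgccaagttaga
CARS1: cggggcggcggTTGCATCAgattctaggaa
GARS1: ttacgcggcgaTTTCATCAtgctccgagcc
IARS1: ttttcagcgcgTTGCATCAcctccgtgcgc
MARS1: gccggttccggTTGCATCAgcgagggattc
NARS1: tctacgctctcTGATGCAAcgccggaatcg
TARS1: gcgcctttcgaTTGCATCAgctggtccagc
YARS2: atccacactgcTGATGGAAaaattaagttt
In AARS1, CARS1, IARS1, MARS1 and TARS1 the same 8 letters occur, read on the gene's strand as TTGCATCA. NARS1 carries their reverse complement, and GARS1 and YARS2 differ from it at the free position N.

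The printed AARS1 site lies at chr16:70289675-70289704 on the minus strand, and its match starts at position -187 from the annotated start. Those of CARS1 (chr11:3057407-3057436, minus strand) and MARS1 (chr12:57488053-57488082, plus strand) start at -2 and -4. The GARS1 match starts at -33 (chr7:30594834-30594863, plus strand) and that of IARS1 at -13 (chr9:92293692-92293721, minus strand). In NARS1 (chr18:57621804-57621833, minus strand) and TARS1 (chr5:33440956-33440985, plus strand) it begins after the start, at 15 and 3. The YARS2 match starts at -197 (chr12:32756076-32756105, minus strand). Of the 7 cytosolic matches, only that of AARS1 was farther upstream than position -33. Its wider setting is the 250 bases before the AARS1 start (chr16:70289507-70289756, minus strand), shown for context with the match in capitals.
AARS1 upstream: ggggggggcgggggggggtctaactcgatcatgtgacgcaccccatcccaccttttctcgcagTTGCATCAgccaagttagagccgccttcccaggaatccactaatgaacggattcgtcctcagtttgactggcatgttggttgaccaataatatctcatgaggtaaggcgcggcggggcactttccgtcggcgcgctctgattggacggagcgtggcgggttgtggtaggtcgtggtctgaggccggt

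**Figure D2:**
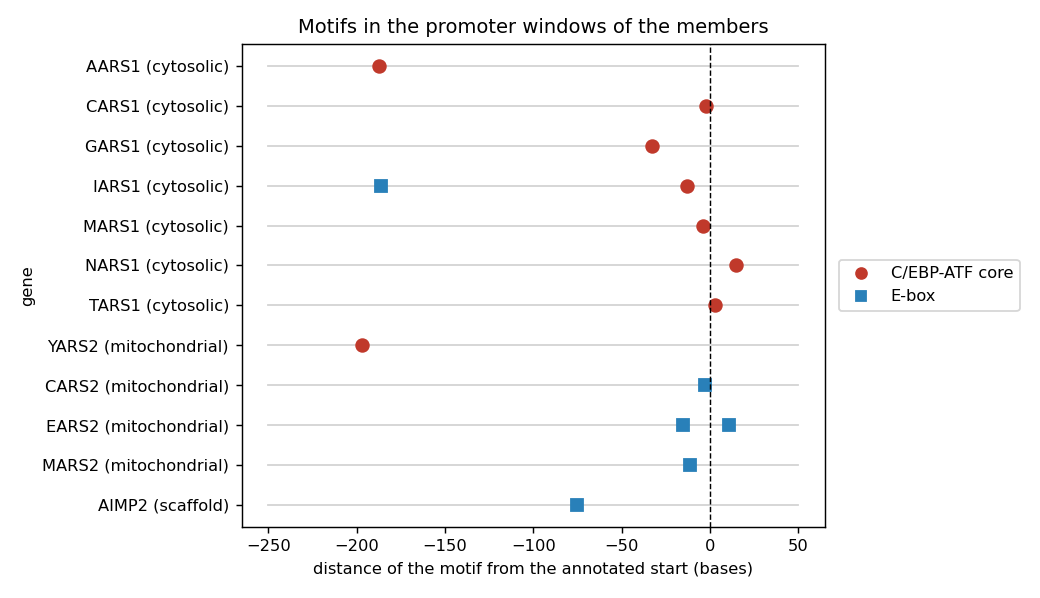
Position of each motif match (x axis, bases from the annotated start; negative is upstream) in the listed genes with a match (y axis), with circles for the C/EBP-ATF core TGATGNAA and squares for the E-box CACGTG; grey lines span the searched window. Circles lie in 7 cytosolic genes and 1 mitochondrial gene, squares in 3 mitochondrial genes, IARS1 and AIMP2; EARS2 has 2 squares because 1 site falls in the windows of 2 annotated starts.

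In the 7 measured genes with the motif the median log2 fold change was -0.73, and in the 7 with a window but no match it was -0.33. The groups did not overlap in 6 of the former, all but TARS1, and in 0 of the latter. Over all genes, 4.23% did not overlap with shCD39 the lower group. LARS1, VARS1 and YARS1 did not overlap either, but had no window, so whether they carry the motif is unknown. EPRS1, KARS1, QARS1 and RARS1, without a match, belong to the multisynthetase complex, as do IARS1 and MARS1 with one. The difference between matched and unmatched genes was not tested, nor was it separated from complex membership. SARS1 and WARS1, with changes as large as those of the matched genes, had no match in their windows, which says only that these letters are not there. Over all tested genes the medians were 0.01 with the motif (346 genes) and 0.00 without it. The E-box CACGTG, bound by MYC and its partners and also searched on both strands, occurred in IARS1 alone among the 14 measured cytosolic genes with a window. It occurred in 3 of 14 mitochondrial synthetases (CARS2, EARS2 and MARS2) and in AIMP2, against 8.77% of all symbols. In 8 instances in the table a site of one motif overlapped a site of the other.

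Among the enzymes outside the complex, those for tryptophan, serine, glycine, cysteine, alanine and tyrosine had the largest differences. WARS1, which charges the tryptophan transfer RNA and is known to be induced by interferon, read 6.29, 7.29, 6.40 and 7.40 in shCD39 arrays 1 to 4. The shCTRL arrays read 8.24, 7.90, 8.26 and 7.07 for it. Array 4 of the controls lay below shCD39 arrays 2 and 4, so the groups overlapped. Its log2 fold change was the largest of the family, -1.02 (SE 0.30, limma adjusted p = 0.158), or 2.03-fold lower.

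SARS1, the serine enzyme, which also charges the transfer RNA of selenocysteine, read 6.42, 6.30, 6.25 and 6.97 with the CD39 hairpin. With the control hairpin it read 7.56, 7.70, 7.55 and 6.87. The only overlap was between the arrays numbered 4. Its log2 fold change was -0.93 (SE 0.20, limma adjusted p = 0.0876).

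GARS1, whose gene makes both the cytosolic and the mitochondrial glycine enzyme, had shCD39 values of 8.31, 8.78, 8.30 and 9.30 and shCTRL values of 9.81, 9.66, 9.51 and 9.37. All shCD39 arrays were lower, array 4 by a small margin, and the log2 fold change was -0.91 (SE 0.21, limma adjusted p = 0.0939). CARS1, the cysteine enzyme, read 6.10, 6.25, 5.91 and 6.73 against 7.25, 7.22, 6.96 and 6.86 in the controls. It too was lower on every shCD39 array, by 0.82 on average (log2 fold change -0.82, SE 0.17, limma adjusted p = 0.0822).

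AARS1, which charges the alanine transfer RNA and can remove wrongly attached serine, had the lowest p of the family. Its values were 9.58, 9.75, 9.53 and 10.09 in shCD39 and 10.53, 10.54, 10.58 and 10.24 in shCTRL. The groups were apart, the nearest values being those of the arrays numbered 4. The means were 9.74 ± 0.25 and 10.47 ± 0.16 (log2, SD, n = 4 arrays each), and the log2 fold change came to -0.73 (SE 0.14, limma adjusted p = 0.0783).

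YARS1, the tyrosine enzyme, read 7.10, 7.30, 6.98 and 7.62 in shCD39, and 8.17, 7.84, 7.97 and 7.69 in shCTRL. Every shCD39 value was again the lower one, and the log2 fold change was -0.67 (SE 0.15, limma adjusted p = 0.1).

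The asparagine, valine, threonine and histidine enzymes, also outside the complex, differed less. NARS1 stood at 10.15, 9.99, 10.28 and 10.23 with the CD39 hairpin and at 10.62, 10.59, 10.65 and 10.38 with the control hairpin. VARS1 stood at 7.73, 7.61, 7.62 and 7.69 against 8.07, 8.15, 8.05 and 7.90. Neither gene overlapped between groups, and in neither did shCD39 array 4 stand near the controls more than the other shCD39 arrays did. Their log2 fold changes were -0.40 (SE 0.11) and -0.38 (SE 0.10), with limma adjusted p of 0.14 and 0.126. A second, dimmer probe set of VARS1 gave a difference of -0.36, and its groups did not overlap either (exact permutation p = 0.0286, the smallest that 4 against 4 arrays allow). The second probe set of WARS1 also gave -0.36, at a level of 3.58 over all arrays, where the exact permutation p was 0.314.

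TARS1, the threonine enzyme, read 9.75, 10.26, 9.93 and 10.54 in shCD39 and 10.47, 10.53, 10.65 and 10.49 in shCTRL. Here shCD39 array 4 lay within the control range while the other arrays were lower, and the log2 fold change was -0.42 (SE 0.16, limma adjusted p = 0.248). HARS1, the histidine enzyme, read 4.95, 4.83, 5.15 and 5.30 against 5.33, 5.64, 5.21 and 5.36. Its groups overlapped as well (log2 fold change -0.33, SE 0.14, limma adjusted p = 0.291). In the RefSeq windows HARS1 shares 184 bases with HARS2, its mitochondrial counterpart, which starts in the opposite direction.

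The 7 measured synthetases of the multisynthetase complex spread more widely, from a log2 fold change of -0.92 to 0.33. MARS1, which charges methionine transfer RNA including the initiator, read 8.08, 8.38, 8.05 and 8.94 in shCD39. The control arrays read 9.53, 9.35, 9.29 and 8.96. All shCD39 values were lower, though array 4 only just, and the log2 fold change was -0.92 (SE 0.19, limma adjusted p = 0.0849).

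IARS1, the isoleucine enzyme, stood at 9.54, 9.97, 9.50 and 10.22 against control values of 10.46, 10.39, 10.49 and 10.26. LARS1, the leucine enzyme, known also as a leucine sensor upstream of mTORC1, stood at 9.24, 9.51, 9.32 and 9.75 against 9.99, 9.80, 10.01 and 9.76. Neither gene overlapped, but the arrays numbered 4 stood close in IARS1 and all but met in LARS1. The log2 fold changes were -0.59 (SE 0.16, limma adjusted p = 0.131) and -0.43 (SE 0.13, limma adjusted p = 0.167).

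EPRS1, a fused enzyme for glutamate and proline, read 10.27, 10.53, 10.22 and 10.89 in shCD39 and 10.84, 10.87, 10.98 and 10.88 in shCTRL. The first 3 shCD39 arrays were below every control, while array 4 was among them, and the log2 fold change was -0.42 (SE 0.14, limma adjusted p = 0.212).

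The other members of the complex did not share this pattern. KARS1, whose gene makes the lysine enzyme of both compartments, read 8.98, 9.03, 8.84 and 8.99 against 9.01, 8.99, 9.14 and 9.03 (log2 fold change -0.08, SE 0.10, limma adjusted p = 0.755; -0.04 without shCD39 array 3 and -0.05 without shCTRL array 3). QARS1, the glutamine enzyme, read 9.36, 9.42, 9.29 and 9.27 against 9.38, 9.43, 9.29 and 9.38. It had the smallest difference of the family, -0.03 (SE 0.10, limma adjusted p = 0.918), and turned to 0.00 after quantile normalization and 0.03 after cyclic loess. With single arrays left out it stayed between -0.06 and -0.01.

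RARS1 was the only member with a higher mean in shCD39, at 8.81, 8.92, 8.92 and 8.96 against 8.31, 8.61, 8.42 and 8.94. Only shCTRL array 4 reached into the shCD39 range, and the log2 fold change was 0.33 (SE 0.14, limma adjusted p = 0.287). AIMP1, the scaffold that binds RARS1 in the complex, read 8.80, 8.76, 8.72 and 8.78 against 8.95, 8.94, 9.10 and 8.63. Array 4 of the controls was the lowest of all 8 here, and the log2 fold change was -0.14 (SE 0.12, limma adjusted p = 0.632). It was -0.23 without that array, -0.08 without shCTRL array 3 and -0.07 after quantile normalization or cyclic loess.

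**Figure D3:**
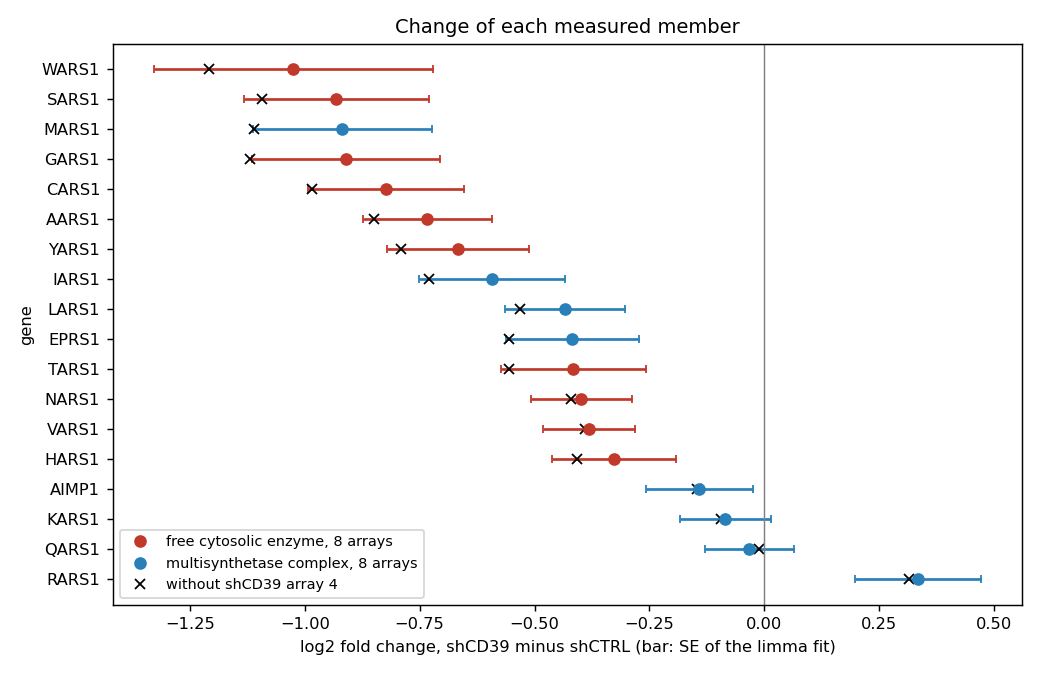
Log2 fold change of each measured gene (x axis, shCD39 minus shCTRL; circles with the SE of the limma fit over 8 arrays), red for free cytosolic enzymes and blue for members of the multisynthetase complex, with crosses for the fit without shCD39 array 4. Genes from WARS1 to HARS1 lie between -1.02 and -0.33, while KARS1, QARS1 and AIMP1 lie near 0 and RARS1 at 0.33; the crosses lie farther left for most of the genes with lower means.

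Grouped by place in the cell's machinery, the 10 free cytosolic synthetases were all lower in mean, with a median log2 fold change of -0.70, and 6 of them did not overlap between groups. In the 7 complex members 6 were lower, the median was -0.42 and 3 did not overlap. Over all genes 48% were lower in mean, and 4.23% did not overlap with shCD39 the lower group. By catalytic fold, the 9 class I enzymes had a median of -0.59 and the 7 class II enzymes one of -0.42, with EPRS1 holding both classes and counted in neither. These medians are descriptions, and the differences between the subgroups were not tested.

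The shift was uneven across the arrays of a group. Averaged over the 17 cytosolic genes, the log2 deviation from the shCTRL mean was -0.68, -0.48, -0.70 and -0.20 in shCD39 arrays 1 to 4. It was 0.07, 0.05, 0.04 and -0.17 in the shCTRL arrays, so the arrays numbered 4 stood close to each other from opposite sides. Array 4 was the highest shCD39 array in 13 of 17 genes, and array 4 of the controls was the lowest of its group in 11 of 17. In 11 genes shCD39 arrays 1 and 3 both read below arrays 2 and 4. Even so, 11 of 17 genes in shCD39 array 4 lay below every control array. The mean deviation over all genes stayed between -0.01 and 0.01 on every array. What sets these arrays apart was not tested.

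Without shCD39 array 4 the log2 fold changes of AARS1, CARS1, GARS1 and MARS1 were -0.85, -0.99, -1.12 and -1.11, and all 4 genes passed. SARS1, YARS1, IARS1, EPRS1 and LARS1 also passed in that setting, and fell by 1.09, 0.79, 0.73, 0.56 and 0.53 on the log2 scale. Leaving out shCTRL array 4 put SARS1, and no other synthetase, past the threshold, at -1.11 (0.228% of all genes were lower and past it). Leaving out any other single array put none past it.

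The mitochondrial side could be viewed only through genes that are not synthetases. Of 19 listed factors of mitochondrial translation 13 were measured, 9 with lower (48% of all genes) and 4 with higher means. The median log2 fold change was -0.08. That median was -0.01 without shCD39 array 3, -0.03 without shCD39 array 1, -0.02 after quantile normalization and -0.01 after cyclic loess. None passed the threshold by limma. At an unadjusted p under 0.05, 1 was higher, TACO1, a translational activator of a respiratory subunit (0.25), whose arrays all lay above the controls, while those of the initiation factor MTIF3 all lay below (-0.22). These single genes among 13 are near the shares of all genes, 6.54% for the unadjusted p and 3.61% and 4.23% for groups that lie wholly above or below. MRRF, which recycles mitochondrial ribosomes, had -0.36 (SE 0.18), or -0.20 without shCD39 array 1, and GUF1, a mitochondrial elongation factor, -0.34 (SE 0.18), or -0.21 without shCD39 array 3. The mean deviation of the 13 genes ran from -0.13 to 0.03 over the shCD39 arrays and from -0.02 to 0.03 over the controls. The cytosolic synthetase median was lower than the mitochondrial factor median by a log2 difference of -0.35, which is a description without a test.

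Cytosolic translation factors differed less in median than the synthetases. The 10 measured elongation and termination genes had a median of -0.15, with 8 lower and 0 past the threshold or at an unadjusted p under 0.05. DPH5 and DPH2, which build the diphthamide residue of elongation factor EEF2, stood at -0.45 (-0.24 without shCD39 array 3) and -0.29. The 8 initiation genes measured, of 34 listed, had a median of -0.20, with 7 lower and 2 of them at an unadjusted p under 0.05. Over all genes 48% were lower in mean, and 8.13% at that p. EIF4EBP1, an inhibitor of cap-dependent initiation and itself a known ATF4 target, did not overlap between groups (-0.71, SE 0.12, limma adjusted p = 0.0698), and passed when array 4 of either group was left out. EIF4E, the protein it binds, stood at -0.26.

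Genes that make and mature transfer RNA showed medians closer to that of all genes. Those of RNA polymerase III transcription had a median of -0.06 over 8 measured of 22 listed genes. Of the 8, 3 were lower at an unadjusted p under 0.05 (8.13% of all genes) and none passed the threshold. The polymerase subunits POLR3E and POLR3B stood at -0.46 and -0.39 and did not overlap (4.23% of all genes), while POLR3C stood at -0.35. Without shCD39 array 4, POLR3B passed. Processing, export and editing genes had a median of -0.10 over 20 measured of 28 listed genes. At an unadjusted p under 0.05, 5 were lower (8.13% of all genes) and 1 was higher (6.54%), and none passed the threshold. TSEN15, a subunit of the endonuclease that splices transfer RNA, stood apart in this list at -1.40 (SE 0.30, limma adjusted p = 0.0876). Its shCD39 array 4 value of 6.18 lay above the 6.11 of shCTRL array 4. Without shCD39 array 4 it passed, at -1.73. The others at an unadjusted p under 0.05 were XPO5, NXT1, RPP30 and DTD1, from -0.34 to -0.28, and HSD17B10 at 0.32. TSEN34, another subunit of the endonuclease, stood at 0.34, or 0.19 without shCTRL array 1.

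The amino acid response list was made of genes of amino acid synthesis, transport and stress known to respond to ATF4. It was chosen with earlier results of these data known, so its counts are a description and not an independent result. Of 30 listed genes 19 were measured, and the mean was lower in all 19, against 48% of all genes. The median was -1.07, against -0.43 for the synthetases. Promoter windows were at hand for 15 of the 19. Of these, 4 (ASNS, ATF3, JDP2 and MTHFD1L) held TGATGNAA, against 4.46% of all gene symbols and 3.22% of the tested genes with a window. At an unadjusted p under 0.05 all 19 were lower (8.13% of all genes). Lower and past the threshold were 0.047% of all genes, and 2 of this list. These were STC2, a secreted glycoprotein, and ATF3, a stress-induced transcription factor (log2 fold changes -1.79 and -0.75, limma adjusted p = 0.048 and 0.0388). The means of ATF3, 3.33 in shCD39 and 4.08 in shCTRL, lay below the median level of all genes, 4.30, so the size of its difference is uncertain. Neither STC2 nor ATF3 passed when an array other than number 4 of either group was left out. On the separate arrays this list deviated by -1.34, -1.02, -1.43 and -0.58 in shCD39 and by 0.21, 0.17, 0.17 and -0.55 in shCTRL. The order of the arrays within shCD39, and the low shCTRL array 4, were thus as in the synthetases, which share every library with it.

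The regulators themselves differed less. Of 12 listed core genes of the integrated stress response 8 were measured, with a median of -0.28. Of the 8, 6 were lower (48% of all genes), 3 at an unadjusted p under 0.05 (8.13% of all genes) and none past the threshold. ATF4 read 8.33, 8.49, 8.53 and 8.89 in shCD39 and 8.83, 8.84, 8.75 and 8.65 in shCTRL, with shCD39 array 4 the highest of all 8 (-0.21, SE 0.13, limma adjusted p = 0.506; -0.32 without that array, -0.13 without shCD39 array 1 and -0.14 after quantile normalization). ATF4 is known to be controlled mainly at translation, which arrays do not measure. DDIT3, a stress factor induced by ATF4, stood at -0.90 (SE 0.31), with shCTRL array 4 at 4.04, inside the shCD39 range. It passed without that array, at -1.27. IMPACT, an inhibitor of GCN2, stood at -0.46, and EIF2AK3, the kinase PERK, at -0.35.

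MYC, another known activator of translation genes, read 9.40, 9.17, 9.12 and 9.37 in shCD39 and 10.12, 10.06, 9.98 and 9.35 in shCTRL. Array 4 of the controls again fell inside the shCD39 range (-0.61, SE 0.16, limma adjusted p = 0.131), and MYC passed without it, at -0.79. Of 12 listed genes of the MYC and MAX network 10 were measured, with a median of -0.07 and 8 lower (48% of all genes). At an unadjusted p under 0.05, MLXIP (-0.31, or -0.20 without shCD39 array 4) and MNT (-0.30) were lower beside MYC, and MXD4 was higher (0.27). Over all genes 8.13% were lower and 6.54% higher at that p.

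**Figure D4:**
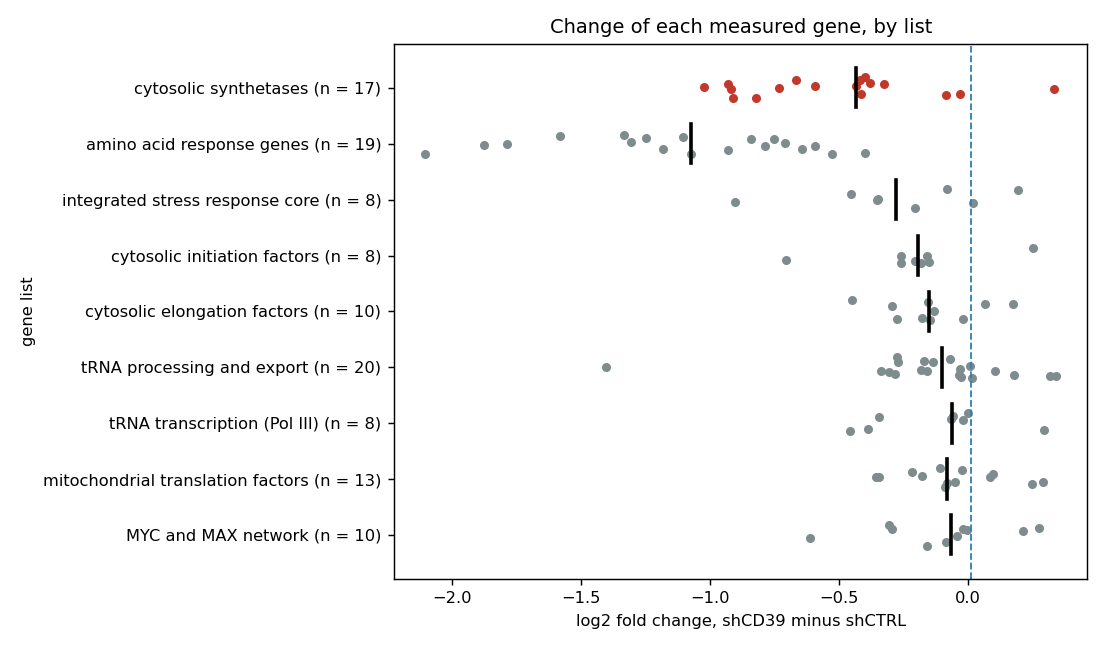
Log2 fold change (x axis, shCD39 minus shCTRL) of each measured gene in 9 lists (y axis); each point is a gene, black bars are list medians and the dashed line is the median of all genes, 0.01. The synthetases centre on -0.43 between the amino acid response genes at -1.07 and the mitochondrial translation factors at -0.08.

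The targeted gene was lower in mean without passing the threshold. ENTPD1 gave values of 2.42, 2.14, 2.72 and 2.95 with its hairpin, and of 3.16, 2.88, 3.21 and 4.12 with the scrambled one, so the groups overlapped (log2 fold change -0.79, SE 0.25, limma adjusted p = 0.178). With single arrays left out, ENTPD1 ran from -0.94 without shCTRL array 2 to -0.53 without shCTRL array 4. Its means of 2.56 and 3.34 lay below the median level of all genes, 4.30, and the deposited values carry no detection call, so the size of this difference is uncertain. Of 20 myeloid genes 14 were measured. FLT3, AZU1, PRTN3 and CTSG lay at 9.38 or more in both groups, and CD14 and KIT at 3.25 or less. The mean log2 level of the list ran from 7.75 to 8.18 over the shCD39 arrays and from 7.55 to 7.80 over the controls, and 12 of the 14 were higher in shCD39, 5 of them at an unadjusted p under 0.05 (6.54% of all genes). CSF1R at 1.36, LYZ at 1.07 and TYROBP at 1.06 had the largest differences, and these 3 passed the threshold without shCD39 array 4. In that setting 111 of all 14884 genes were higher and past it. Markers of other lineages had mean levels from 4.35 to 4.82 in shCD39 and 4.22 to 4.42 in shCTRL for T and NK cells (8 of 10 higher; IL7R 1.53, NKG7 0.50). The B and plasma cell list ran from 3.86 to 3.97 in both groups (3 of 5 higher; PAX5 -0.27, MZB1 0.19, or 0.08 without shCTRL array 2, 0.10 without shCD39 array 2 and 0.29 without shCD39 array 1). Erythroid and megakaryocyte markers ran from 3.94 to 4.31 and from 3.99 to 4.11 (3 of 5 higher; AHSP 0.26, or 0.13 without shCD39 array 1; KLF1 0.17, or 0.10 without shCTRL array 2 and 0.11 without shCD39 array 3), and fibroblast and epithelial ones from 4.05 to 4.17 and from 3.86 to 4.01 (5 of 5 higher; THY1 0.29, KRT8 0.25). None of these genes passed the threshold with all arrays. IL7R passed without shCD39 array 4, as 1 of the 111 higher genes in that setting. CD2, LCK, CR2, DCN, EPCAM and AHSP had means below 3.2 in both groups. CD2 (3.14 in shCD39 and 3.10 in shCTRL) lay near the array medians of 3.13 to 3.17, and LCK, CR2, DCN, EPCAM and AHSP below them. Other members of these lists lay above 4.30 in both groups. Among them were KRT18 (7.33 in shCD39 and 7.32 in shCTRL), CD4 (6.95 and 6.96), PAX5 (6.56 and 6.83) and NKG7 (6.48 and 5.98). The part of these lists in the synthetase values was not tested.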

How the data were processed

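Total RNA was labelled as biotinylated cRNA and hybridised to Affymetrix arrays, per the labels' protocols. The deposited values are log2 expression per probe set, made by the authors with RMA in the oligo package per the submitters' processing notes; tool versions and the genome build were not given in the sources used here. RMA sets all arrays to a shared distribution, so changes are relative to the bulk of probe sets. Arrays carry no read depth, and their number limits the precision. The table held 53617 probe sets, of which 16098 had 1 symbol in the platform annotation, 0 had several and 37519 had none. Entrez IDs were checked against RefSeq (GRCh38.p14, names only), which changed 0 symbols. Where a gene had several probe sets the brightest on average was kept, giving 14884 genes. Array correlations over probe sets ran from 0.974 to 0.987, and 0 pairs were identical.

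Groups were compared over all genes with limma 3.58.1 in R 4.3.3 (lmFit, eBayes, 2-sided, Benjamini-Hochberg, threshold 0.05), without a filter on dim genes; all 18 measured members also passed the filter tried as an alternative. Simulated data of shCD39 against shCTRL with 14884 genes gave 26% recovery at an absolute log2 change of 0.5, 89% at 1 and 100% at 2. The exact permutation test was 2-sided. Members and lists were chosen with earlier results of these data known. Named genes are ENTPD1, all measured members, MYC, ATF4, and per list up to 4 genes past the threshold or else the 2 with the largest change. Other genes named for an unadjusted p or for a marker's level were chosen after their values were seen. The planned test within each amino acid of cytosolic against mitochondrial enzyme was not run, as 0 mitochondrial members were measured. Figures used matplotlib 3.10.9.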

Additional observations from a re-analysis of the deposited data

Results flagged for a closer look

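AARS1 read 10.24 in shCTRL array 4, which lay far below the other shCTRL arrays at 10.53 to 10.58 for a group of 4; the gap was 0.856 of the group's range, beyond Dixon's 95% critical value. Of 38 groups of arrays examined it was the only such case, and chance gives about 1 in 20. Without that array the log2 fold change of AARS1 remained negative and short of the threshold.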

How the results depend on the processing

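The median of the 17 cytosolic synthetases stayed negative under every alternative run, with or without KARS1 and GARS1, and ran from -0.56 to -0.39 when single arrays were left out. How many passed the threshold depended on the arrays and the filter: 0 as deposited, 1 with a filter on dim genes, 5 with array weights, 8 without both arrays numbered 4, and 0 to 9 with single arrays left out. At an unadjusted p under 0.05 between 12 and 14 were lower with single arrays left out. Over all genes 14 passed as deposited, 5 after quantile normalization, 64 with the filter, 22 with a trend and robust prior, 124 with array weights, 368 without both arrays numbered 4, and 0 to 423 with single arrays left out. The filter tests 7442 genes; the causes of the other shifts were not tested. QARS1 changed sign after quantile normalization (0.0019) and cyclic loess (0.030). The replicate block left 6 genes past the threshold and 0 synthetases. Correlations of same-numbered deviations over all genes ran from -0.037 to 0.062. They show no pairing over the genes as a whole, but cannot exclude that same-numbered arrays were handled together. ENTPD1 was removed by the filter on dim genes and passed in none of the other settings. Alternatives for mitochondrial synthetases were not run, as none was measured.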
